A study of Mus musculus with 2 samples.

Results

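Uncoupling proteins and adenine nucleotide carriers are proteins of the mitochondrial inner membrane, and both belong to the mitochondrial carrier family, named Slc25 in mouse. The genes examined were *Ucp1*, *Ucp2* and *Ucp3*, the ADP/ATP carriers *Slc25a4* (also called Ant1) and *Slc25a5* (Ant2), and the relatives *Slc25a14* and *Slc25a27*, which are also called UCP5 and UCP4. They were chosen by name, and a probe set, the group of probes that reads one transcript on the array, was counted for a gene only when it was annotated to that symbol alone. Of the 7 genes, 6 had such probe sets, 20 in all, among the 18193 genes with a value on the arrays. *Ucp2* had none and was not analysed here.

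UCP1 lets protons return to the mitochondrial matrix without ATP synthesis, so that the energy of respiration is released as heat. It is the defining protein of thermogenic brown adipocytes, is activated by free fatty acids and is inhibited by purine nucleotides. The ADP/ATP carriers bring ADP into the matrix for ATP synthase and export the ATP that is made, and they too can conduct protons in the presence of fatty acids. UCP3 is found mainly in skeletal muscle and brown fat, and *Slc25a14* and *Slc25a27* are best known from nervous tissue.

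RNA came from perigonadal white adipose tissue (WAT) of female C57BL/6 mice, 30 weeks old, kept for 25 weeks on a high-fat diet (HFD), in which fat gives 60% of calories, and fasted overnight before harvest. PeriA Tg mice were heterozygous for a human perilipin A transgene, perilipin A being a protein on the surface of lipid droplets, under the aP2 promoter/enhancer, which acts in adipocytes of white and brown fat. WT controls were littermates without the transgene. RNA of 3 mice was pooled per genotype and each pool was hybridised to 1 Affymetrix mouse array, so that the values have no error over mice, no difference was tested, and fewer cells of a type cannot be told apart from less RNA per cell.

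The deposited signals are linear measures of probe set brightness, and the signal log ratio is the log2 of the Tg signal over the WT signal, with over 0.3 or under -0.3 as the threshold of the methods. The filter kept a probe set with a signal of 98.2 or more, the median of all signals, on at least 1 array. Signals of different probe sets do not rank genes by the amount of mRNA. *Rplp0*, called 36B4 where it served as the PCR control, had a signal log ratio of 0.07. The bacterial poly-A controls are labelled together with the RNA. In 8 of 8 of their pairs the signal log ratio of the 5′ probe set was lower than that of the 3′ one, with a median difference of -0.55. Each control transcript is read by more than 1 pair, so that the pairs are not independent. The mouse pairs of *Actb*, *Gapdh* and pyruvate carboxylase had -0.25, -0.33 and -0.16, and the hybridisation controls a median of -0.005. The part of these differences in the values below was not tested. The WAT carried its defining adipocyte markers on both arrays, with *Adipoq* (adiponectin) at 41052 in WT against 43802 in Tg, and of 12 adipocyte markers 2 were over 0.3, *Lipe* (0.53) and *Thrsp* (0.57), and 2 under -0.3, *Gpd1* (-0.69) and *Lep* (-0.64), with a median signal log ratio of 0.09. Macrophage markers were mostly lower in Tg, with a median of -0.39. Of 15 such markers 9 were under -0.3, against 16.9% of all genes that passed the filter. The 8 endothelial markers had a median of -0.06.

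The starts of 4 of the genes are shown first, since these are the genes whose values are set beside each other below: the uncoupling protein genes, and the carriers of ADP and ATP. Each window holds 250 bases before and 50 after the RefSeq start (GRCm38.p6), 5′ to 3′ on the strand of the gene. Capitals mark AGGTCA, the half-site that nuclear receptors bind, and the TATA letters TATAA or TATATA. *Ucp1* lies at chr8:83290348-83298456, with its window at chr8:83290098-83290397 on the plus strand. *Ucp3* lies at chr7:100472991-100486432, with its window at chr7:100472741-100473040 on the plus strand. *Slc25a4* lies at chr8:46207168-46211062, with its window at chr8:46211013-46211312 on the minus strand. *Slc25a5* lies at chrX:36795597-36798808, with its window at chrX:36795347-36795646 on the plus strand.
Ucp1: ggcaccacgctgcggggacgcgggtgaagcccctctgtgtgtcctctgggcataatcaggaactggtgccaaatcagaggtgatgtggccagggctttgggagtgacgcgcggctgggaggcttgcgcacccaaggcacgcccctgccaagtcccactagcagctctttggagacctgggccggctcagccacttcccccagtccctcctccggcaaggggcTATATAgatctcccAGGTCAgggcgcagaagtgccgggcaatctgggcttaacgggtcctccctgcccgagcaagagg
Ucp3: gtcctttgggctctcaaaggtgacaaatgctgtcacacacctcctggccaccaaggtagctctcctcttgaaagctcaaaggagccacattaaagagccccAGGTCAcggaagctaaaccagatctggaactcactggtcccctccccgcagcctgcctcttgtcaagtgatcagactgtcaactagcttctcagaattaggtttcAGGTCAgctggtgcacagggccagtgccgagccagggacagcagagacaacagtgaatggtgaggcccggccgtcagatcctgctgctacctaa
Slc25a4: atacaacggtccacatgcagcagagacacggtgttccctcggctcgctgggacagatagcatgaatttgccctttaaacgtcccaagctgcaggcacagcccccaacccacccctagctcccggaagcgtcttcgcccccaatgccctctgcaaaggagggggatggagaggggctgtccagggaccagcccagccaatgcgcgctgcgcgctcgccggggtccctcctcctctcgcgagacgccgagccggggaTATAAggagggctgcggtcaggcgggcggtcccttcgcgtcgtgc
Slc25a5: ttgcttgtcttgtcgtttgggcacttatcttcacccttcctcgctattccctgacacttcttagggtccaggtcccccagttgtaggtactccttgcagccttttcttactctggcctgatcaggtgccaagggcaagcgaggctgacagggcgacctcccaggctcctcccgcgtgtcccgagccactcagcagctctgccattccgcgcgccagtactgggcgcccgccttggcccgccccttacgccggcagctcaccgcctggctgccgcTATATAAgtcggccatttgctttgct

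Letters were searched on both strands, with positions counted from the start of the gene, where -1 is the base before it. The window of *Ucp1* held AGGTCA at -14 to -9 and TATATA at -28 to -23. The window of *Ucp3* held AGGTCA at -149 to -144 and again at -44 to -39, and no TATA letters. *Slc25a4* had TATAA at 6 to 10, *Slc25a5* had TATATA at 25 to 30 with an overlapping TATAA at 27 to 31, and AGGTCA was in neither window. Of 32851 windows of all genes, 16.3% held AGGTCA, 24.9% TATAA and 5.67% TATATA. The cAMP response element half-site TGACG, held by 20.8% of all windows, stood at -147 to -143 in *Ucp1* and on the other strand at 28 to 32 in *Ucp3*. Among the windows not shown, TGACG stood at -50 to -46 and at -180 to -176 in overlapping windows of *Slc25a14*. In *Ucp2* it stood on the other strand at -62 to -58. These matches describe the letters only.

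Among the uncoupling proteins, *Ucp1* differed most between the arrays. The single probe set read 115.1 in WT against 7255 in Tg, which is 63.0-fold (signal log ratio 5.98). On the WT array, 52.2% of all probe sets were dimmer than that of *Ucp1*, and on the Tg array 97.7% were dimmer. No other of the 11587 genes that passed the filter had a higher signal log ratio. The study lists *Ucp1* from these same arrays, so that its value here is the same measurement and not independent evidence. The signal log ratios of the 2256 other genes within 0.5 log2 units of its mean signal had an SD of 0.32 over genes. *Ucp1* itself read well below that mean in WT and well above it in Tg, so that this SD describes neither brightness.

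On its brightest probe set, *Ucp3* read 367.5 in WT against 619.3 in Tg (signal log ratio 0.75). Its other probe set had 140.0 in WT against 205.9 in Tg (signal log ratio 0.56). Both probe sets of *Ucp3* were thus higher in Tg and both were over 0.3. Their values lay 0.20 apart, less than 0.41, the SD pooled within genes over their passing probe sets, which covers repeated readings of the same RNA pools and not mice. Of the genes that passed, 97.7% had a lower signal log ratio than *Ucp3*. Because *Ucp3* is also a muscle gene, 16 skeletal muscle markers were examined. Of these, 7 passed the filter, none was over 0.3 and 5 were under -0.3, against 16.6% and 16.9% of all genes that passed. Those 5 reached the filter on the WT array only, so that they could only be lower in Tg, and the 2 that reached it on both arrays lay between the thresholds. Of the 5, *Pvalb* differed most, with 391 in WT against 49.6 in Tg. The summed signal of all 16 was 9023 in WT against 8135 in Tg, most of it from *Acta1* and *Myl1*. *Myl1* had 2265 in WT against 2170 in Tg. The myosin heavy chains *Myh1*, *Myh2*, *Myh4* and *Myh7* were all under the filter, at most 45.0 on either array. *Acta1*, the actin of skeletal muscle, had 5451 in WT against 5353 in Tg.

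**Figure D1:**
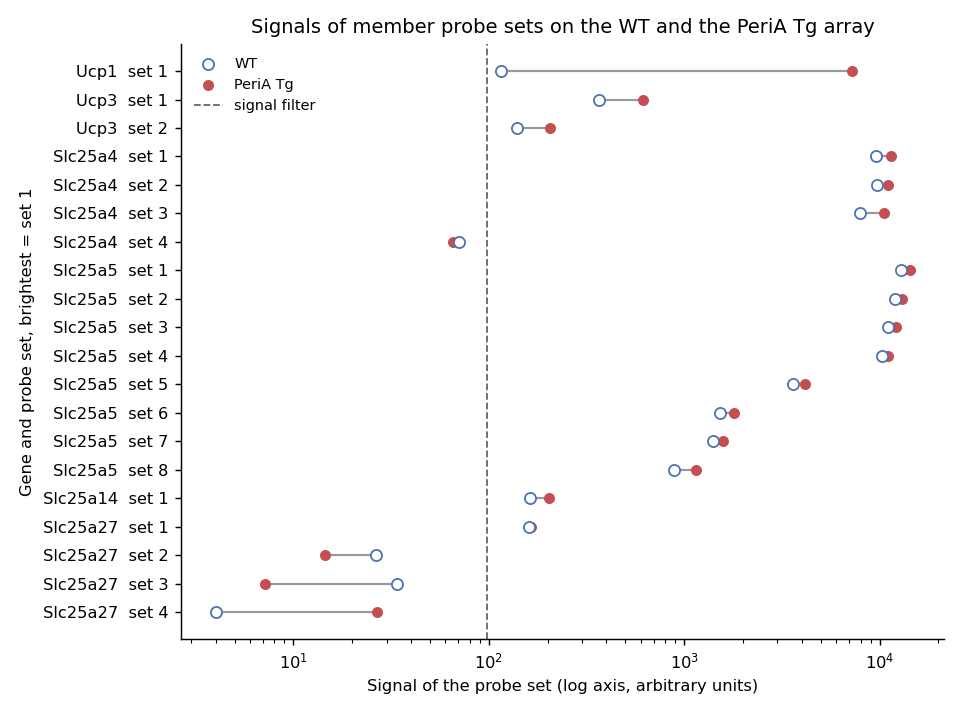
Signals of the 20 probe sets of the 6 genes on the WT array (open circles) and the PeriA Tg array (filled circles), on a log axis, with 1 array of pooled RNA per genotype and the brightest probe set of each gene named set 1. The dashed line is the signal filter at 98.2. The pair of *Ucp1* is the widest, from 115.1 to 7255, the pairs of *Slc25a5* are narrow at every brightness, and 3 sets of *Slc25a27* lie left of the filter.

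The ADP/ATP carriers were bright on both arrays, and at their brightest probe sets both lay between the thresholds. *Slc25a4*, the carrier of heart and muscle that is also made in fat, had 9630 in WT against 11509 in Tg at its brightest (signal log ratio 0.26). The next probe set had 9657 in WT against 11028 in Tg (0.19), and the third had 7964 in WT against 10571 in Tg (0.41). All 3 bright probe sets were higher in Tg, and 1 of them was over 0.3. The remaining probe set was under the filter, with 70.6 in WT against 65.4 in Tg. Of the 352 other genes within 0.5 log2 units of the mean signal of *Slc25a4*, 10.2% were over 0.3. Of the same genes, 83.2% had a lower signal log ratio than *Slc25a4* at its brightest. The muscle markers given beside *Ucp3* apply to *Slc25a4* as well.

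*Slc25a5*, the widely expressed ADP/ATP carrier, had 12932 in WT against 14280 in Tg at its brightest (signal log ratio 0.14). Of the 258 other genes within 0.5 log2 units of its mean signal, 7.36% were over 0.3 and 65.5% had a lower value than *Slc25a5*. All of its 8 probe sets passed the filter and were higher in Tg, where 50.5% of all passing probe sets had a signal log ratio over 0, with signal log ratios from 0.11 to 0.37 and a median of 0.16. The dimmest of the 8, with 892.4 in WT against 1151 in Tg, was the only one over 0.3, as were 17.8% of all passing probe sets. Their SD was 0.09, against 0.41 pooled over the probe sets of all genes with at least 2. In all genes, 5415 probe sets were at least 1 log2 unit dimmer than the brightest one of their gene, and their signal log ratio was lower by a median of -0.15. For *Slc25a5* there were 4 such probe sets, and all 4 had a higher value than the brightest, by 0.03 to 0.22. Of its probe sets, 6 carry the suffix _x_at and 1 the suffix _a_at, and for *Slc25a4* these numbers are 1 and 2. The suffix _x_at marks probes that may also bind similar transcripts, so that reads of these close relatives and of their pseudogenes cannot be fully separated.

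*Slc25a14*, at chrX:48623418-48662298, had a single probe set, with 162.4 in WT against 202.5 in Tg. Its signal log ratio was 0.32, just over the threshold. *Slc25a27*, at chr17:43637739-43667214, had 161.4 in WT against 164.3 in Tg on the 1 probe set that passed (signal log ratio 0.03). Its other 3 probe sets were all under the filter, with at most 34.1 on either array, and went in both directions, at -0.86, -2.24 and 2.74. At this brightness the arrays scattered more: the 1746 other genes within 0.5 log2 units of *Slc25a14* had an SD of 0.49, and 21.7% of them were over 0.3. Of 12 neuronal markers, 4 passed the filter and 2 were over 0.3, as were 16.6% of all genes that passed. The 2 were *Stmn2*, with 255.9 in WT against 443.9 in Tg, and *Dbh*, with 55.7 in WT against 104.8 in Tg. Between the thresholds lay *Syp*, with 478.5 in WT against 434.1 in Tg (-0.14), and *Rbfox3*, with 105.4 in WT against 128.7 in Tg (0.29). *Dbh* reached the filter on the Tg array only, and its other passing probe set went the other way, with 98.4 in WT against 25.2 in Tg. The summed signal of all 12 was 1174 in WT against 1331 in Tg, and all probe sets of *Snap25*, *Tubb3* and *Nefl* were at most 37.7 on either array. Whether nerve fibres contribute to *Slc25a14* was not tested.

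All 6 genes were over the filter on both arrays. In all, *Ucp1*, *Ucp3* and *Slc25a14* were over 0.3, *Slc25a4*, *Slc25a5* and *Slc25a27* lay between the thresholds, and none was under -0.3. Among all genes that passed, 16.6% were over 0.3 and 16.9% were under -0.3, and the median was 0.02. The median of the 6 genes was 0.29, and *Ucp1* alone was over 1, as were 1.02% of all genes. *Slc25a14* and *Slc25a4* lay close to the threshold on either side and crossed it with the scaling. *Slc25a14* had 0.25 when the arrays were scaled on *Rplp0* and 0.28 with a pseudocount. *Slc25a4* had 0.34 when the arrays were given equal median signals. The same scalings moved the share of higher genes among those past the threshold from 49.6% to 35.6% with *Rplp0* and to 65.6% with equal medians.

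**Figure D2:**
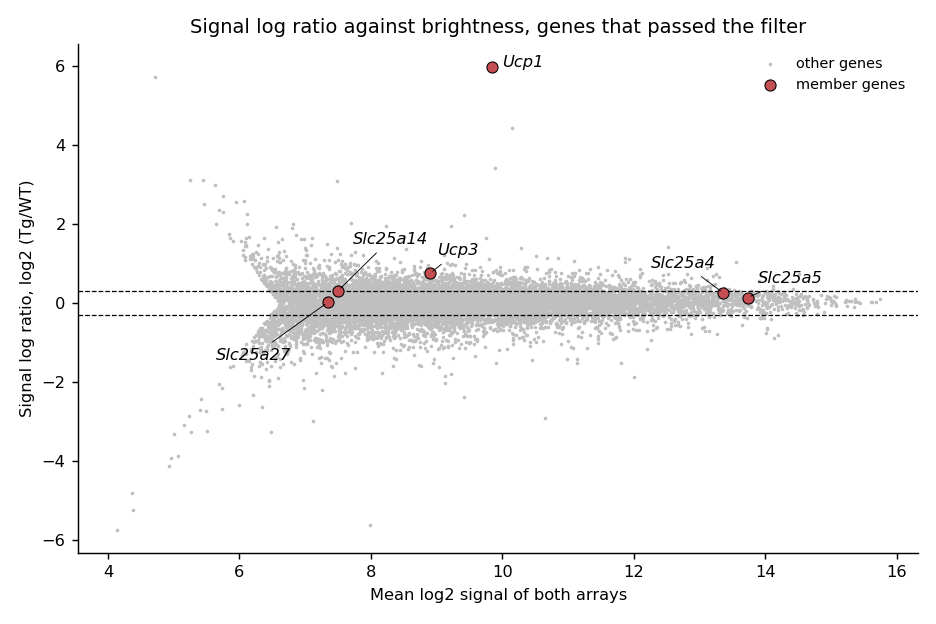
Signal log ratio of Tg over WT against mean log2 signal, one point per gene for the 11587 genes that passed the filter. Dashed lines mark 0.3 and -0.3. *Ucp1* lies above all other genes at 5.98. The ADP/ATP carriers lie among the brightest genes, *Slc25a4* just under the upper line at 0.26 and *Slc25a5* lower at 0.14. *Slc25a14* and *Slc25a27* lie at the dim end where the scatter is wide.

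The other mitochondrial carriers were used to see where these genes lie within their family. Of 41 further carriers with a value, 36 passed, of which 11 (30.6%) were over 0.3, 6 under -0.3 and 19 between, and the median was 0.11. Over all genes that passed, 16.6% were over 0.3 and 16.9% under -0.3. Of the 33 further carriers that reached the filter on both arrays, 9 were over 0.3 and 5 under -0.3, with the same median. Of all genes that reached the filter on both arrays, 15.4% were over 0.3 and 14.6% under -0.3. *Slc25a34* and *Slc25a53* reached it on the Tg array only and *Slc25a13* on the WT array only, so that their direction was set by the filter. The ranks that follow include them. Among the 42 carriers in all, *Ucp1* was the 1st, *Ucp3* the 4th, *Slc25a14* the 13th, *Slc25a4* the 16th, *Slc25a5* the 20th and *Slc25a27* the 29th in order of signal log ratio. Between *Ucp1* and *Ucp3* stood *Slc25a34*, a carrier with 68.4 in WT against 140.4 in Tg, and *Slc25a42*, the carrier of coenzyme A, with 299.8 in WT against 542.9 in Tg. Their distances from *Ucp3*, at 1.04 and 0.86 against 0.75, were less than the pooled SD between probe sets, as were those between all neighbours from *Slc25a34* down. *Slc25a30*, a close relative of *Slc25a14*, had 1298 in WT against 1309 in Tg at its brightest, and its other passing probe sets ranged from -0.33 to 0.36. At the lower end were *Slc25a13* (-0.89), an aspartate/glutamate carrier that was dim at 118.0 in WT against 63.5 in Tg, and *Slc25a1* (-0.67), the citrate carrier. *Slc25a31*, the ADP/ATP carrier of testis, was under the filter, at 21.4 in WT against 5.60 in Tg.

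ADP/ATP exchange depends on a supply of phosphate, on pores in the outer membrane and on the enzymes that use ATP at the mitochondrion. Of 17 such partners with a value, 13 passed, with a median of 0.07. Of these, 4 (30.8%) were over 0.3 and 1 under -0.3, against 16.6% and 16.9% of all genes that passed. *Slc25a3*, the phosphate carrier, had 12657 in WT against 15777 in Tg (signal log ratio 0.32), and its dim probe set had 0.03. *Hk2*, the hexokinase that binds mitochondria, had 1379 in WT against 2030 in Tg. *Slc25a23* and *Slc25a24*, which exchange ATP-Mg for phosphate, lay on opposite sides, at 0.45 and -0.36. *Vdac1*, *Vdac2* and *Vdac3*, the pores of the outer membrane, had -0.03, -0.12 and 0.20.

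All 18 genes of ATP synthase that were listed, its inhibitor *Atpif1* among them, passed the filter, and 16 lay between the thresholds, with a median of 0.15. *Atp5md* (0.37) was the only one over 0.3 and *Atp5a1* (-0.32) the only one under -0.3, against 16.6% and 16.9% of all genes that passed. The 2 other passing probe sets of *Atp5a1* were higher in Tg, at 0.19 and 0.20. *Atp5j2* had 0.29, with 0.63 and -0.31 on its other passing probe sets, and *Atp5c1*, the central stalk subunit, had 0.25. The values of *Slc25a4* and *Slc25a5*, 0.26 and 0.14, lay within the range of these subunits, from -0.32 to 0.37, whereas *Ucp1* and *Ucp3* lay above it.

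**Figure D3:**
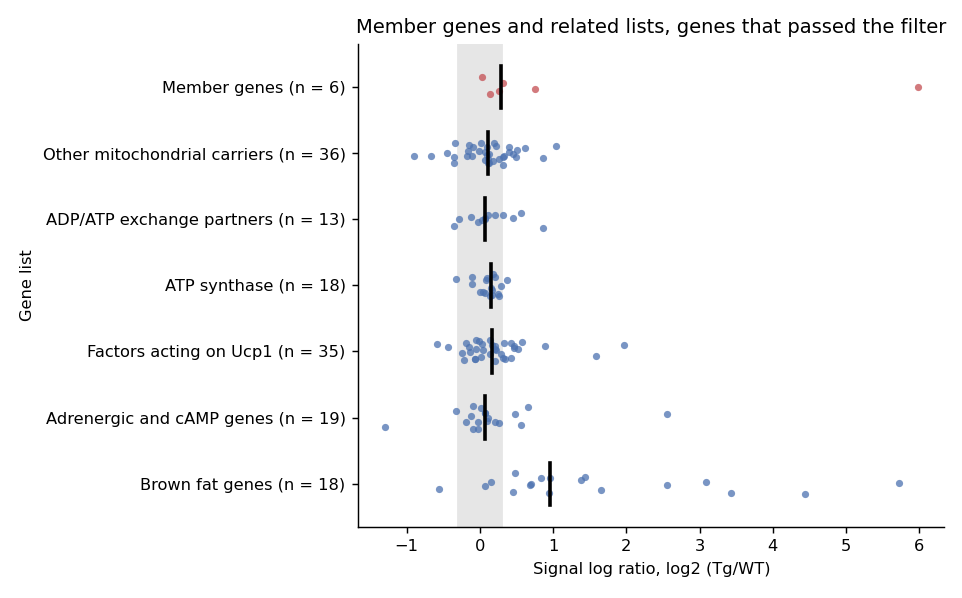
Signal log ratios of Tg over WT for the 6 uncoupling protein and carrier genes and of related lists, one point per gene that passed the filter, with medians as vertical bars. The grey band covers -0.3 to 0.3 and the height within a row has no meaning. ATP synthase genes lie mostly inside the band, while the brown fat genes extend to the right with a median of 0.95.

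Transcription of *Ucp1* is known to be driven by nuclear receptors with their coactivators and by cAMP signals from the β-adrenergic receptors. Of 36 factors that act on *Ucp1*, 35 passed, with a median of 0.16. Of these, 12 (34.3%) were over 0.3 and 2 under -0.3, against 16.6% and 16.9% of all genes that passed. Of the 33 factors that reached the filter on both arrays, 10 were over 0.3 and 2 under -0.3, with a median of 0.13. Of all genes that reached it on both, 15.4% were over 0.3 and 14.6% under -0.3. *Ppara*, the receptor that fatty acids activate, had 1.97, and its 3 probe sets had 1.45 to 2.49. *Esrrg*, an estrogen-related receptor, was dim, with 37.6 in WT against 112.3 in Tg. It reached the filter on the Tg array only, so that its direction was set by the filter. The other probe sets of *Esrrg*, under the filter on both arrays, had 0.70 and 0.13. *Pparg*, the master regulator of adipocytes, had 4204 in WT against 6234 in Tg. The coactivators *Ppargc1a* (0.47) and *Ppargc1b* (0.88) and the regulator of brown adipocytes *Prdm16* (0.43) were over 0.3. The other passing probe set of *Prdm16* had 0.18. *Ppargc1a* was dim, with 100.1 in WT against 138.7 in Tg. Its other passing probe set, at 1.01, reached the filter on the Tg array only. *Zfp516*, which activates the *Ucp1* promoter, had -0.58, and its other probe set had -0.16. *Nrip1*, the gene of RIP140, which represses *Ucp1*, had 2860 in WT against 2722 in Tg at its brightest, whereas the next brightest had 0.37 and 0.44.

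Of 20 genes of adrenergic and cAMP signalling with a value, 19 passed, with a median of 0.07. Of these, 4 (21.1%) were over 0.3 and 2 under -0.3, against 16.6% and 16.9% of all genes that passed. *Gnas*, the stimulatory G protein, had 0.07. *Prkaca* and *Prkar2b*, a catalytic and a regulatory subunit of protein kinase A in fat, had 0.01 and -0.02 at their brightest. The other passing probe set of *Prkaca* had 0.38 and those of *Prkar2b* had 0.19 and -0.33. Of its further subunits, *Prkacb* had -0.12 at its brightest and -0.51 on its other passing probe set. *Prkar2a* had -0.33 at its brightest, and -0.48 and -1.75 on its other passing probe sets. The last of these reached the filter on the WT array only. *Dio2*, the deiodinase that makes active thyroid hormone, reached the filter on the Tg array only, with 25.3 in WT against 149.2 in Tg, and its other probe sets, under the filter on both arrays, had -0.51 and 0.95. *Map2k6*, a kinase upstream of p38, reached it on the WT array only, with 165.7 in WT against 67.4 in Tg. Among the 17 genes that reached the filter on both arrays, 3 were over 0.3, the phosphodiesterase *Pde4d* (0.66) among them. Under -0.3 was 1 of the 17, *Prkar2a*. Of all genes that reached it on both arrays, 15.4% were over 0.3 and 14.6% under -0.3. The β-adrenergic receptors were not analysed here.

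Of 20 genes of brown fat heat production with a value, 18 passed, with a median of 0.95. Of these, 15 (83.3%) were over 0.3 and 1 under -0.3, against 16.6% and 16.9% of all genes that passed. *Slc27a2*, *Dio2* and *Elovl3* reached the filter on the Tg array only and *Ntrk3* on the WT array only, so that their direction was set by the filter. Of all genes that reached it on both arrays, 15.4% were over 0.3 and 14.6% under -0.3. Of the 14 such genes in this list, 12 were over 0.3 and 0 under -0.3, with a median of 0.89. Some of these genes were in the earlier analyses of the same arrays, so that the count describes the list only. *Slc27a2*, a fatty acid transporter, had 3.60 in WT against 190.4 in Tg, and *Elovl3*, an elongase of long fatty acids, had 61.5 in WT against 523.7 in Tg. *Ntrk3*, with 113.6 in WT against 76.9 in Tg, was the one under -0.3. The genes whose pair of signals was most like that of *Ucp1*, by distance between the log2 signals of both arrays, were *Cidea*, *Fabp3*, *Acsm3*, *Dbp* and *Cox7a1*, in this order. *Cidea*, a lipid droplet protein of brown adipocytes, was at a distance of 1.17 log2 units, with 242.6 in WT against 5272 in Tg, and *Fabp3*, a fatty acid-binding protein, at 1.81. *Acsm3*, a medium-chain acyl-CoA synthetase, followed at 2.71, the clock output factor *Dbp* at 2.98 and *Cox7a1*, a subunit of cytochrome c oxidase, at 3.06. This likeness rests on 2 arrays, and none of the 5 genes came within 1 log2 unit of *Ucp1*. Markers of interscapular brown fat stood beside it: of 5 with a value, 2 passed and 1 was over 0.3, as were 16.6% of all genes that passed. The 1 was *Mpzl2*, with 96.5 in WT against 209.1 in Tg. *Mpzl2* reached the filter on the Tg array only, so that its direction was set by the filter. The same holds for its other passing probe set, with 46.4 in WT against 158.9 in Tg. The remaining probe set of *Mpzl2*, under the filter on both arrays, had 0.36. *Ebf3*, which reached it on both arrays, had -0.15 at its brightest, and 0.36 and -0.19 on its other passing probe sets. *Zic1* and *Lhx8* were at most 13.8 on either array. The summed signal of the 5 was 962.7 in WT against 1013 in Tg, most of it from *Ebf3*.

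**Figure D4:**
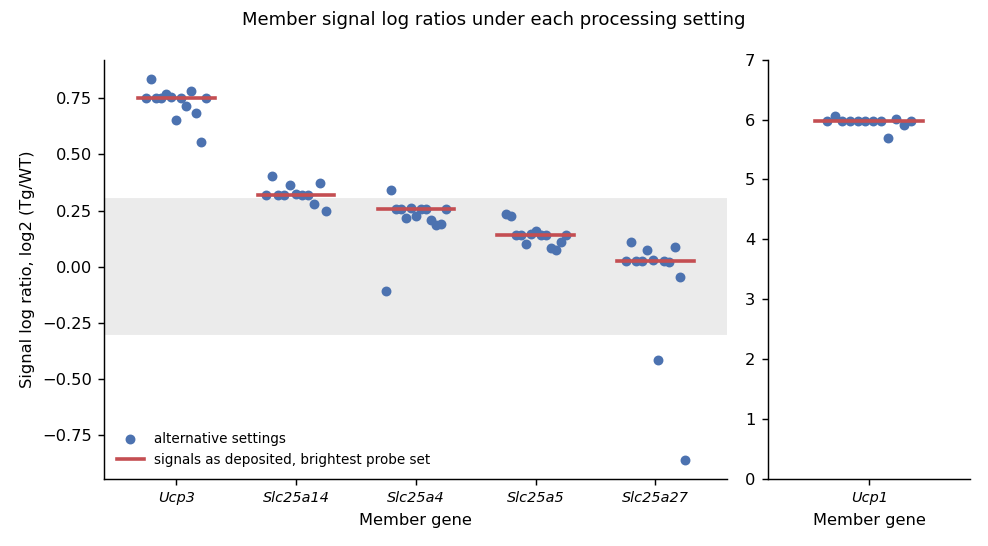
Signal log ratios of the 6 genes with the signals as deposited and the brightest probe set (red bars) and under each other processing setting that gave a value (blue points). *Ucp1* is drawn on an axis of its own, and the grey band in the left panel covers -0.3 to 0.3. *Ucp1* ranged from 5.70 to 6.06 and *Ucp3* from 0.56 to 0.84, *Slc25a5* stayed inside the band, and *Slc25a27* reached -0.86 on its second-brightest probe set.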

How the data were processed

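Perigonadal WAT RNA of 1 WT and 1 PeriA Tg pool was measured on 1 Mouse Genome 430 2.0 array each. The authors made the deposited intensity values (signals) with GeneChip Operating Software ver1.4, and the submitters' processing notes name MAS5. The scale of each array is set as a whole, and the table holds 45101 probe sets on a linear scale without detection calls. The number of arrays limits the precision.

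The 64 controls entered no count. Gene names came from the platform annotation, with symbols updated through gene identifiers to RefSeq (GRCm38.p6): 34945 probe sets had 1 symbol, 932 had several and 9160 were not listed. The brightest probe set by mean log2 signal gave the value of a gene, and 11587 genes passed the filter. Members, lists and promoter motifs were chosen with earlier results of these data known. The rule for named genes took every member, up to 4 passing genes per list with the largest values, main regulators and the 5 genes nearest to *Ucp1*. Genes named beyond it were chosen after their values were seen. With 1 array per group no test was run and no paired analysis was possible. The ratio computation was tested on simulated data with known shifts.

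Other settings tried were scaling on *Rplp0*, loess (span 0.3), quantile normalization, median centring, a pseudocount of 25.1, a floor of 56.9, no filter, a filter at 470.5, the median over probe sets, the brightest probe set without a suffix and the second-brightest one. Equal median signals and the filter applied on both arrays were added after the data were seen. Promoter windows of 6 of the 7 genes were in the RefSeq table, *Slc25a27* being the other one. Python 3.11.15 was run with pandas 2.3.3, numpy 2.4.6, statsmodels 0.14.6, scipy 1.17.1 and matplotlib 3.10.9.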

Additional observations from a re-analysis of the deposited data

How the results depend on the processing

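Several alternatives cannot move a given gene, such as another choice of probe set where there is only 1, and these are left out of the counts that follow. *Ucp1* had 5.70 to 6.06 under the 6 alternatives that changed its value, *Ucp3* 0.56 to 0.84 under 8 and *Slc25a5* 0.07 to 0.24 under 9, and none of the 3 crossed a threshold under these. *Slc25a14* crossed it under 2 of 6 alternatives and *Slc25a4* under 1 of 9, and the latter had -0.11 on its only probe set without a suffix, which is under the filter. *Slc25a27* had -0.42 as the median over its probe sets, which then put 1 gene under -0.3 where there was none, and -0.86 on the second-brightest one. The latter probe set is under the filter, and so are 3 of the 4 behind the median. With second-brightest probe sets, 3 genes passed and 1 was over 0.3, since *Ucp1* and *Slc25a14* have no other probe set. No paired analysis was possible because each genotype has 1 array and the labels give no replicate numbers. MAS5 signals near 100 scatter widely, and a signal log ratio such as that of *Slc25a14* cannot be read as a difference between mice.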

Other observations

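Uncoupling proteins have been linked to lipid peroxidation products and superoxide, and genes that handle these were listed beside them. Of 16 with a value, 15 passed, 5 were over 0.3 and 0 under -0.3, which is 33.3% where 16.6% of all genes that passed were over 0.3, and their median was 0.24, against 0.02 over all genes. *Gsta4*, the glutathione transferase that removes 4-hydroxynonenal, had 964.6 in WT against 2191 in Tg on its only probe set (signal log ratio 1.18). *Aldh2*, the mitochondrial aldehyde dehydrogenase, had 3236 in WT against 5861 in Tg at its brightest, while its 4 other probe sets, with signals of at most 196.7, ranged from -0.63 to 0.64. The other 3 of the 5, *Cat* (catalase) and the reductases of thioredoxin and of glutathione, *Txnrd2* and *Gsr*, were at 0.31 each, just over the threshold. The other passing probe sets of these genes were all under it, at 0.27 for *Cat*, 0.27 for *Gsr* and -0.22 to 0.08 for the 3 of *Txnrd2*. *Sod2*, the superoxide dismutase of the mitochondrial matrix, had -0.15, and *Nnt*, which makes mitochondrial NADPH, had 0.05 on its brightest probe set and 0.60 on the next.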
